A study of Mus musculus with 5 samples.

Results

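The myofibre miRNAs described here are miR-1, miR-133a, miR-133b, miR-499 and miR-486. These 5 were taken by assay name from the 217 miRNAs measured in regenerating mouse muscle, and all 5 were found. The tissue was tibialis anterior, a leg muscle, of male C57BL/6J mice aged 4 to 6 months that carried no transgene or mutation named in the labels. The 5 injured groups received 2.5 µM cardiotoxin in 100 µl into the anterior compartment of both hind limbs and were taken 1, 3, 4, 7 or 21 days later. The baseline group received no injection, so the effect of the injection itself cannot be told apart from that of the toxin. Cardiotoxin, a peptide from snake venom, destroys muscle fibres and spares satellite cells, the stem cells from which new fibres form. The labels give 4 mice per time point, and each assay has 4 values per group, but the files do not say which mouse stands behind a value. P-values therefore measure the spread between these values, which may be partly technical. Days 2 and 5 were not analysed here.

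Mature muscle fibres hold a small set of miRNAs that are scarce in most other cells. Transcription factors of the muscle programme, among them MyoD, MEF2 and SRF, drive their genes, and the miRNAs accumulate as myoblasts leave the cell cycle, fuse and mature. miR-1 favours differentiation in cultured myoblasts, where histone deacetylase HDAC4 is a known target, while miR-133 is known for a role in myoblast growth and targets SRF. miR-499 lies within a myosin heavy chain gene and is known for its part in the slow-fibre programme. miR-486 lies within an ankyrin gene, dampens Foxo1 in muscle, and is also abundant in red blood cells.

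By gene names and neighbours in the RefSeq table for GRCm38.p6, Mir1a-1 and Mir133a-2 lie within the host gene Mir1a-1hg and are each other's nearest miRNA genes. Mir133b lies within Lincmd1 beside Mir206, Mir499 within Myh7b, and Mir486 within Ank1, where it overlaps Mir3107. Mature sequences are shown for miR-133b and miR-499 only, because no mature RefSeq entry was matched to miR-1, miR-133a or miR-486. They are RefSeq's, 5′ to 3′, on build GRCm38.p6, with the seed (bases 2 to 8, which pair with targets) in capitals.
miR-133b-3p, chr1:20682834-20682855, plus strand: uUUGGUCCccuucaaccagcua
miR-499-5p, chr2:155622893-155622913, plus strand: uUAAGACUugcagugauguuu
miR-133a and miR-133b are near-identical relatives, and how far each assay detects the other miRNA was not tested.

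RNA was quantified with TaqMan assays, whose readout is the threshold cycle (Ct) at which the product crosses a detection threshold. A Ct that is 1 cycle higher means about 2-fold less RNA, and a Ct of 35 was taken as the detection limit. Assays differ in efficiency, so the Ct of one miRNA is not a measure of its amount beside another. In uninjected muscle miR-133a had the lowest Ct of the 217 assays and miR-1 the third lowest, both being defining miRNAs of skeletal muscle, while miR-133b ranked 8, miR-486 149 and miR-499 164. These are whole-muscle samples, in which fewer fibres and less of a miRNA per fibre cannot be told apart.

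miR-1 had Ct values of 13.12, 13.14, 12.94 and 12.48 at baseline, 16.90, 19.18, 16.09 and 17.36 on day 1, and 18.53, 17.42, 18.73 and 18.96 on day 3. It stood at 16.47, 16.14, 17.14 and 17.23 on day 4, 14.81, 15.07, 14.36 and 15.82 on day 7, and 13.82, 14.07, 14.24 and 14.72 on day 21. Every injured value lay above every baseline value, that is, at less RNA, through day 21. miR-133a, which shares primary transcripts with miR-1, had 9.33, 9.59, 9.19 and 9.30 at baseline, 12.26, 13.11, 10.94 and 11.79 on day 1, and 15.30, 13.05, 14.71 and 14.99 on day 3. Its values were 13.00, 12.03, 13.77 and 12.91 on day 4, 10.94, 11.18, 11.25 and 11.70 on day 7, and 10.34, 10.35, 10.72 and 10.48 on day 21. Again no injured value overlapped the baseline values. Among the injured groups, day 1 overlapped days 3, 4 and 7, and days 3 and 4 overlapped each other.

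miR-133b, made from a separate transcript, had 14.69, 15.42, 15.12 and 14.62 at baseline, 17.71, 18.30, 16.48 and 17.50 on day 1, and 19.49, 18.41, 19.34 and 19.53 on day 3. By day 4 it had come back to 15.58, 15.68, 15.83 and 15.81, with 15.03, 15.21, 15.45 and 15.32 on day 7 and 16.36, 15.94, 15.85 and 16.06 on day 21. On this raw scale days 1, 3, 4 and 21 were clear of baseline and day 7 overlapped it.

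miR-499 had 27.70, 27.92, 27.44 and 26.76 at baseline and 28.64, 30.84, 29.48 and 29.38 on day 1. On day 3 all 4 values, 36.00, 35.97, 36.19 and 37.01, were past the detection limit, and it ranked 217 of 217 assays there. It was detected again at 29.63, 30.45, 31.05 and 30.71 on day 4, 27.13, 28.51, 27.60 and 28.88 on day 7, and 30.26, 28.20, 29.36 and 29.69 on day 21. miR-499 was the only member that went past the detection limit, and day 7 was the only group that overlapped its baseline on this scale.

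miR-486 had 26.55, 27.26, 26.15 and 25.84 at baseline, 30.52, 31.17, 28.28 and 28.84 on day 1, and 32.53, 31.62, 30.51 and 32.65 on day 3. It stood at 28.15, 27.35, 28.97 and 27.80 on day 4, 25.91, 26.87, 26.53 and 26.52 on day 7, and 26.49, 27.57, 24.85 and 25.49 on day 21. Its values of days 7 and 21 overlapped baseline, and those of day 21 spread over more than 2 cycles, the widest spread of a member on that day.

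**Figure D1:**
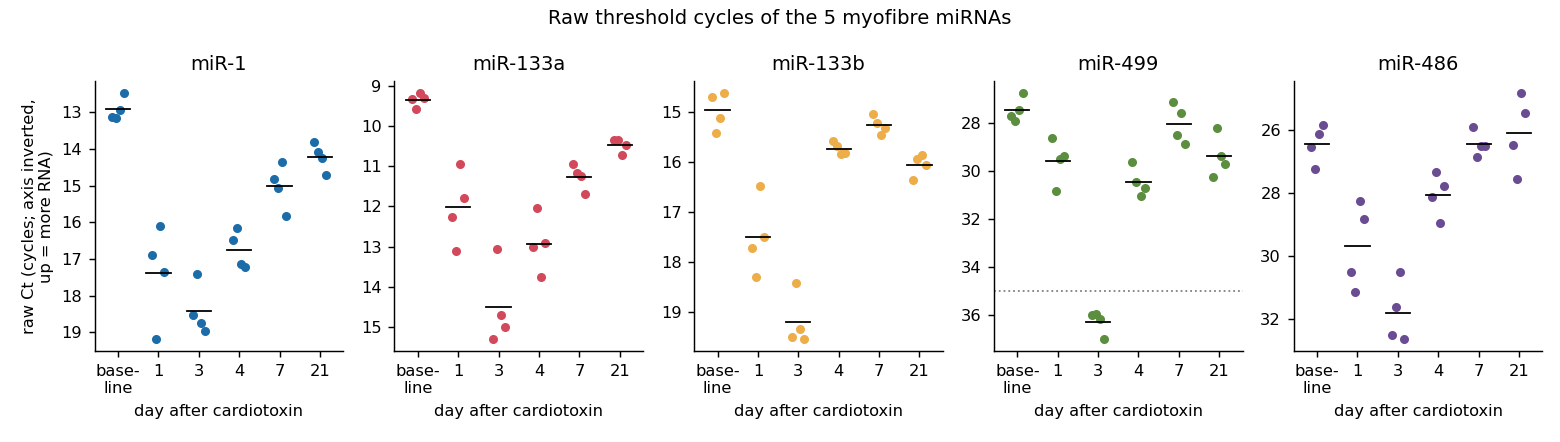
Raw Ct (cycles, axis inverted so that up is more RNA) of the 5 myofibre miRNAs at baseline and on days 1, 3, 4, 7 and 21, with 4 values per group as points and their mean as a bar; the vertical scale differs between panels and the dotted line marks the detection limit of 35. Each member is lowest on day 3, where the 4 values of miR-499 lie between 35.97 and 37.01, past the limit.

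Changes were computed as minus the difference in Ct after scaling, so a log2 change of -1 is 2-fold less RNA. The main scaling was each sample's median shift over 205 miRNAs that were under Ct 35 in every sample ("relative to the median miRNA"), and the alternative was U6, the small nuclear RNA that the files mark as endogenous control. U6 itself averaged 14.84 cycles at baseline and 12.54, 13.01, 13.22, 13.55 and 14.57 cycles on days 1, 3, 4, 7 and 21, so falls from baseline are larger on the U6 scale. A member is said to have risen or fallen only where limma's Benjamini-Hochberg adjusted p over all miRNAs tested was under 0.05 under both scalings. The same 4 baseline values serve every day, so the comparisons with baseline are not independent of each other.

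On day 1, 5 of 5 members had fallen, where 38.9% of all miRNAs tested had done so. miR-1 was lower by 28.8-fold (log2 -4.85 ± 0.47 SE, limma adjusted p = 5.75e-09) relative to the median miRNA, the largest fall of the 211 miRNAs tested, and miR-486 came second (-3.64 ± 0.57). miR-133a (-3.06), miR-133b (-2.92) and miR-499 (-2.51) ranked 5, 6 and 12. The members' median change was -3.06, against -0.04 over all miRNAs tested. Relative to U6 the changes were -6.76 for miR-1, -5.55 for miR-486 and -4.42 for miR-499, the smallest, against a median of -1.95 over all miRNAs. With Y1, another control RNA, only miR-1 kept its call on day 1 (0.948% of all tested were lower), and miR-499 turned to 0.22. Y1 averaged 22.66 cycles on day 1, against 20.31 at baseline.

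On day 3, 4 of the 4 members that could be tested had fallen against baseline (41.0% of all tested), and miR-1 (-6.20 ± 0.47), miR-486 (-6.09 ± 0.57) and miR-133a (-5.87 ± 0.43) were the 3 most lowered of 212 miRNAs. miR-133b was the sixth, at -4.94 ± 0.29. With Ct 35 in place of its day 3 values, miR-499 came out at least 305-fold lower than at baseline, and at least 664-fold lower on the U6 scale. The members' median, without miR-499, was -5.98, against -0.05 over all miRNAs.

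The fall went on between days 1 and 3 for miR-133a (-2.81 ± 0.43, adjusted p = 5.74e-06), miR-486 (-2.45 ± 0.57, adjusted p = 0.000532) and miR-133b (-2.02 ± 0.29, adjusted p = 2.20e-06), by limma relative to the median miRNA. These 3 of 4 tested members passed in this step under both scalings (13.1% of all tested). The day 3 level of miR-499 was lower than that of day 1 by at least 53.4-fold, or 31.0-fold on the U6 scale. miR-1 changed by -1.35 ± 0.47 (adjusted p = 0.0129) in this step relative to the median miRNA, but by -0.57 on the U6 scale (limma adjusted p = 0.477). Its call relative to the median miRNA was also lost without value 3 of day 1 (-1.005 on that scale). The call of miR-133b relative to U6 was lost without value 1 of day 1 or value 3 or 4 of day 3, with changes between -1.12 and -0.97. The day 1 values already held most of miR-1's fall: -4.85 of -6.20 relative to the median miRNA.

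**Figure D2:**
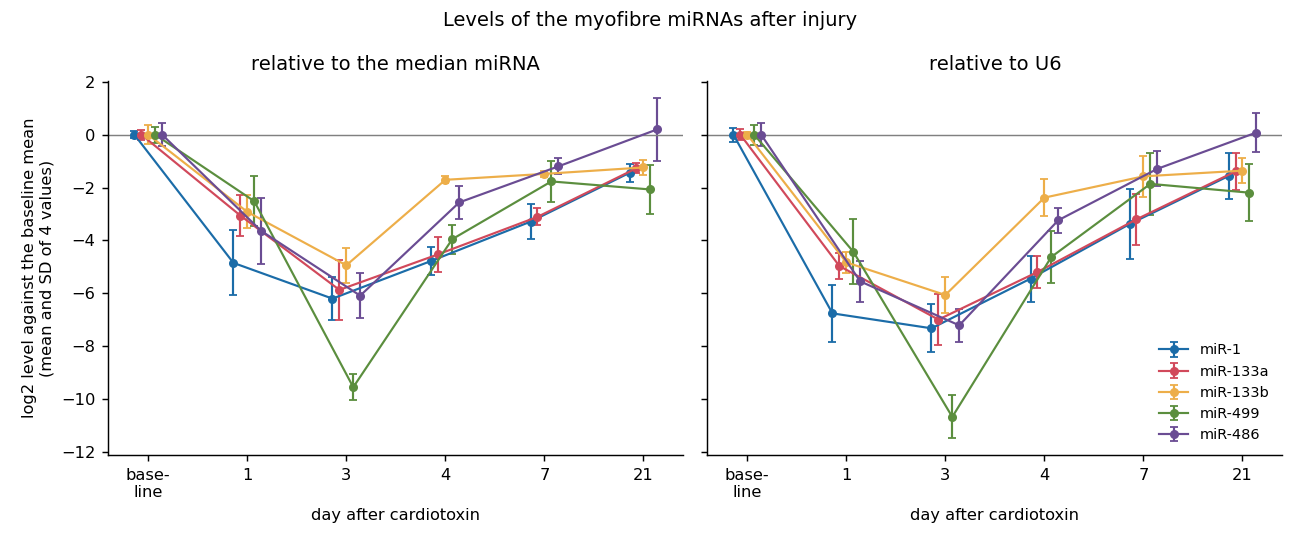
Log2 level of each member (mean and SD of 4 values) against its baseline mean, relative to the median miRNA on the left and to U6 on the right, at baseline and on days 1, 3, 4, 7 and 21. Each member is lowest on day 3, where miR-499 is drawn at its measured Ct although past the detection limit, and miR-486 alone averages above 0 on day 21 (0.20 and 0.08).

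Day 4 was the first day of return. Since day 3, miR-486 had risen by 3.52 ± 0.57 (adjusted p = 2.50e-05), miR-133b by 3.23 ± 0.29 (adjusted p = 7.89e-09), miR-1 by 1.43 ± 0.47 (adjusted p = 0.0152) and miR-133a by 1.35 ± 0.43 (adjusted p = 0.0122) in log2 units by limma. That was 4 of 4 tested members, where 21.3% of all miRNAs tested had risen. The bound for miR-499 was a rise of at least 19.7-fold, or 27.0-fold on the U6 scale. The calls of miR-1 (1.22) and miR-133a (1.04) were lost without value 2 of day 4, and that of miR-1 also without value 3 of day 3 (1.22). Relative to U6, miR-1 lost its call without value 3 or 4 of day 3 or value 1 of day 4, with changes between 1.56 and 1.69. With only days 3 and 4 in the fit, miR-133a missed the threshold (limma adjusted p = 0.0542), and with Y1 so did both, at 0.41 for miR-1 and 0.33 for miR-133a. In this one-day step the rises of miR-133b and miR-486 were more than 9-fold (9.39 and 11.5), against 2.69-fold for miR-1 and 2.55-fold for miR-133a.

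Set against baseline, day 4 still had 5 of 5 members lowered (41.3% of all tested), and the members' median was -3.95, against 0.06 over all miRNAs. miR-1 (-4.77 ± 0.47) and miR-133a (-4.52 ± 0.43) were the 2 most lowered of 213 miRNAs and miR-499 (-3.95 ± 0.47) the fifth. miR-486 (-2.56 ± 0.57) ranked 22 and miR-133b (-1.71 ± 0.29) ranked 47, so the order of the members differed from that of day 3.

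From day 4 to day 7, miR-499 rose by 2.18 ± 0.47 (adjusted p = 0.000606), miR-1 by 1.48 ± 0.47 (adjusted p = 0.0126) and miR-133a by 1.41 ± 0.43 (adjusted p = 0.00966) by limma. These were 3 of 5 members (16.1% of all tested). The call of miR-1 was lost without value 3 of day 7 (1.23) and, relative to U6, without that value or value 4 of day 4 (1.55 and 1.66). miR-486 was higher by 1.36 ± 0.57, which missed the threshold (adjusted p = 0.0506), while its change against U6 passed (1.94, limma adjusted p = 0.00171). miR-133b, which had made its gain a step earlier, was higher by 0.22 with a 95% interval of -0.37 to 0.82.

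On day 7, 4 of 5 members remained lower than at baseline (35.7% of all tested): miR-1 by 9.76-fold, miR-133a by 8.62-fold, miR-499 by 3.405-fold and miR-133b by 2.79-fold. miR-486 stood at -1.20 ± 0.57 (adjusted p = 0.0553) on the median scale and at -1.29 (limma adjusted p = 0.0127) on the U6 scale. Relative to U6 the call of miR-499 was lost without value 4 of day 7 (-1.35). The members' median was -1.77, against 0.07 over all miRNAs. With Y1 (17.8% of all tested lower) or with raw Ct (20.2%), miR-1 and miR-133a alone kept their calls, and miR-133b was at -0.38 and -0.29.

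From day 7 to day 21, miR-1 rose by 1.85 ± 0.47 (adjusted p = 0.00158), miR-133a by 1.84 ± 0.43 (adjusted p = 0.000745) and miR-486 by 1.40 ± 0.57 (adjusted p = 0.0319) by limma. These were 3 of 5 members (19.4% of all tested), and 0 of 5 fell (14.4% of all tested). miR-499 changed by -0.30, with an interval of -1.28 to 0.68, and miR-133b by 0.24, with an interval of -0.35 to 0.84. On raw Ct, on which the median miRNA differed by about 1 cycle between these days, 0 of 5 members passed as higher (6.94% of all tested), and miR-499 (-1.35) and miR-133b (-0.80) passed as lower, as did 66.2% of all tested.
The call of miR-486 was lost with the control snoRNA202 (0.74, limma adjusted p = 0.249) and without any of values 2, 3 and 4 of day 7 or values 3 and 4 of day 21, with changes between 0.99 and 1.41. Relative to U6, that of miR-1 was lost without value 1 or 4 of day 7 or value 1 or 2 of day 21 (1.32 to 1.63), and that of miR-486 without value 4 of day 7 or value 3 of day 21 (1.12 and 1.13).

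On day 21, 4 of 5 members were still lower than at baseline, where 19.2% of all miRNAs tested were. miR-499 was lower by 4.203-fold (-2.07 ± 0.47, adjusted p = 0.000554), the fifth most lowered of 213 miRNAs. miR-1 stood at -1.44 ± 0.47 (adjusted p = 0.00981), miR-133a at -1.27 ± 0.43 (adjusted p = 0.0118) and miR-133b at -1.24 ± 0.29 (adjusted p = 0.000633) by limma. miR-486 had a change of 0.20 with a 95% interval of -0.98 to 1.38 (limma adjusted p = 0.78), so that a difference of about 2-fold either way lies within its error. The members' median was -1.27, against -0.001 over all miRNAs.
Relative to U6 the call of miR-1 was lost without value 2, 3 or 4 of baseline or value 3 or 4 of day 21, with changes between -1.54 and -1.25, and that of miR-133a without value 3 of baseline or value 3 or 4 of day 21, between -1.31 and -1.14. With Y1, 0 of 5 members passed as lower on day 21, where 3.29% of all tested did. Y1 averaged 21.23 cycles on that day, against 20.31 at baseline.

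**Figure D3:**
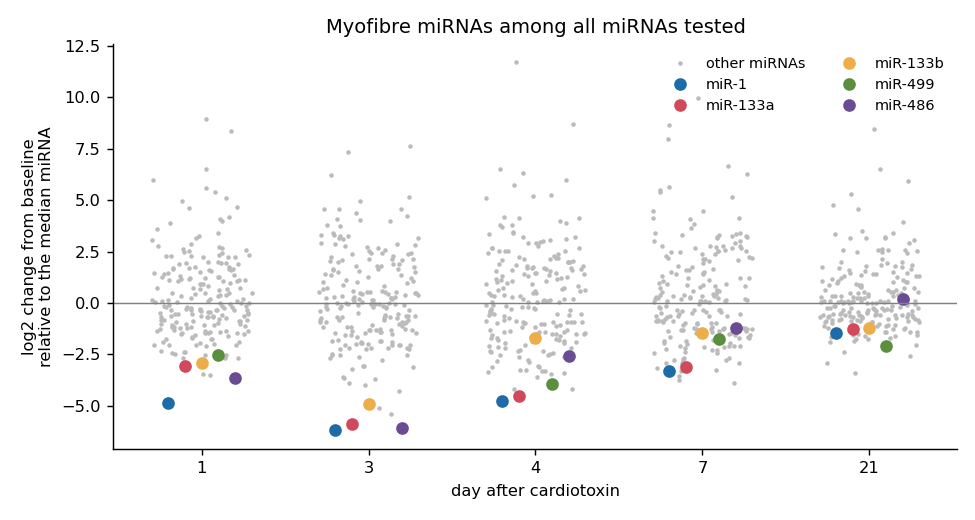
Log2 change from baseline relative to the median miRNA on days 1, 3, 4, 7 and 21 for every miRNA tested (grey points) and the members (coloured points; sideways position has no meaning). The members lie at the low end on days 1 and 3, miR-133b and miR-486 move up among the other miRNAs on day 4, and on day 21 only miR-486 lies above 0; miR-499 of day 3 was past detection and is not drawn.

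The order of the groups differed between members. Ordered from the lowest mean relative to the median miRNA, miR-1 ran day 3, day 1, day 4, day 7, day 21 and baseline, with days 3 and 1 and days 1 and 4 overlapping. Beyond these neighbours, days 3 and 4 and days 1 and 7 also overlapped. For miR-133a the order was day 3, day 4, day 7, day 1, day 21 and baseline, with overlap between days 3 and 4 and between days 7 and 1. Its days 1 and 4 overlapped as well. miR-133b ran day 3, day 1, day 4, day 7, day 21 and baseline, with overlap between days 7 and 21 and, narrowly, between days 4 and 21. These 3 thus shared day 3 as their lowest and baseline as their highest group, as did miR-499. By their means, miR-1 and miR-133a differed in the place of day 1, though days 1 and 4 overlapped in both.
miR-499 ran day 3, day 4, day 1, day 21, day 7 and baseline, with overlap among neighbours between day 4 and day 7. miR-486 ran day 3, day 1, day 4, day 7, baseline and day 21, with overlap between days 1 and 4 and between baseline and day 21. Its values of day 21 also overlapped those of day 7, which are not neighbours in this order. miR-486 was the only member whose highest mean was not that of baseline.

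To ask whether the members moved by equal amounts without the use of a control RNA, each was set against the Ct of miR-133a at the same value number. This takes the order of the 4 values as shared between assays, which the files do not state; the errors of these differences, the scaling of each value and the correlations inside groups rest on it. Since miR-133a itself fell, most miRNAs differ from it, and the share of all miRNAs that passed is given as the background and not as a result. The other 4 members had this test on each day, except miR-499 on day 3, when it was past the detection limit.

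miR-1 lay below miR-133a on day 1. Against their baseline mean its 4 day 1 values were -1.07, -2.50, -1.58 and -2.003 in log2 units relative to miR-133a, while the baseline values ran between -0.22 and 0.39. The groups did not overlap, and the difference was -1.79 ± 0.43 (limma adjusted p = 0.000212), or 3.46-fold. This was 1 of 4 members that passed on day 1, beside 90.5% of all miRNAs tested. On days 3, 4, 7 and 21 miR-1 was at -0.33, -0.25, -0.18 and -0.17 relative to miR-133a, with intervals of -1.20 to 0.54, -1.12 to 0.62, -1.05 to 0.69 and -1.04 to 0.70. Differences of about 2-fold in the lower direction are inside each of those intervals. Against miR-133b in place of miR-133a, the day 1 value of miR-1 was -1.93.

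miR-133b departed upwards from miR-133a in mid-course. Its day 4 values relative to miR-133a were 3.03, 1.96, 3.55 and 2.71, and its day 7 values 1.52, 1.58, 1.41 and 1.99, with baseline values between -0.32 and 0.29. Neither day overlapped baseline. The difference was 2.81 ± 0.42 on day 4 (adjusted p = 6.40e-08), or 7.03-fold, and 1.62 ± 0.42 on day 7 (adjusted p = 0.000579) by limma. It was 0.14 (-0.72 to 0.99) on day 1 and 0.03 (-0.82 to 0.88) on day 21, the first and last days. Day 3 lay between, at 0.93 ± 0.42 (limma adjusted p = 0.0343), with values of 1.42, 0.25, 0.98 and 1.07. That call was lost without value 2 or 3 of baseline or value 1, 3 or 4 of day 3, with differences between 0.77 and 0.91, and with only the 2 groups in the fit (limma adjusted p = 0.14).

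miR-486 was likewise above miR-133a from day 4. Its values relative to miR-133a were 1.95, 1.78, 1.90 and 2.21 on day 4 and 2.13, 1.41, 1.82 and 2.28 on day 7, with baseline values between -0.57 and 0.56. No value of these days overlapped baseline, and the differences were 1.96 ± 0.53 (adjusted p = 0.000673) and 1.91 ± 0.53 (adjusted p = 0.00111) by limma. On day 21 the values were 0.95, -0.12, 2.97 and 2.09, 1 of which lay within the baseline range, and the difference was 1.47 ± 0.53 (limma adjusted p = 0.0183). The day 21 call was lost without value 2 of baseline (1.28) or value 3 (0.97) or 4 (1.26) of day 21, and with only the 2 groups in the fit (limma adjusted p = 0.0531). On days 1 and 3 miR-486 was at -0.58 (interval -1.65 to 0.49) and -0.22 (-1.29 to 0.85).

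miR-499 was at least 5.22-fold lower than miR-133a on day 3 in terms of change from baseline, computed with Ct 35. It was above miR-133a on day 7, with values of 1.91, 0.77, 1.75 and 0.92, against -0.27 to 0.64 at baseline (1.34 ± 0.52, limma adjusted p = 0.0157), a call lost without value 1 of day 7 (1.15) and with limma-trend (adjusted p = 0.0613). On days 1, 4 and 21 it was at 0.54, 0.57 and -0.80, with intervals of -0.50 to 1.59, -0.47 to 1.61 and -1.85 to 0.24.
The members that passed relative to miR-133a numbered 1 of 3 tested on day 3 (98.1% of all tested), 2 of 4 on day 4 (98.1%), 3 of 4 on day 7 (86.8%) and 1 of 4 on day 21 (54.7%). Against miR-133b in place of miR-133a, miR-486 turned to -0.86 on day 4 and fell to 0.28 on day 7, and miR-499 turned to -2.24 on day 4 and to -0.29 on day 7. The direction for miR-486 on day 4 and for miR-499 on days 4 and 7 thus depended on which miR-133 was the measure, while miR-1 was below miR-133b by -3.06 on day 4 and -1.80 on day 7.

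**Figure D4:**
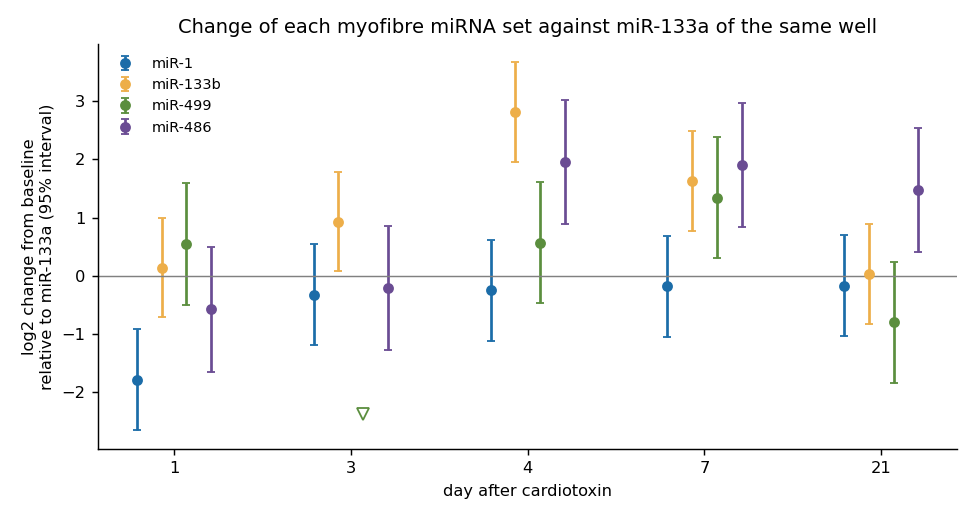
Log2 change from baseline relative to miR-133a of miR-1, miR-133b, miR-499 and miR-486 on days 1, 3, 4, 7 and 21, as the estimate with its 95% interval from limma over all assays; the open triangle is the bound for miR-499, which was past detection on day 3. miR-1 lies below 0 on day 1 (-1.79), miR-133b peaks on day 4 (2.81) and is at 0.03 on day 21, and miR-486 stays at 1.96, 1.91 and 1.47 from day 4.

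Because red blood cells also carry miR-486, its values were set beside miR-451, a miRNA of the red cell lineage, and the other listed red cell miRNAs. miR-451 had Ct values of 18.12, 17.90, 18.88 and 18.31 on day 1, against 21.53, 20.27, 19.18 and 20.08 at baseline, so the day 1 values were clear of baseline and at more RNA. The change was 1.58 ± 0.36 on the median scale and -0.33 on the U6 scale. The sign thus depended on the scaling, whereas miR-486 was lower on that day under both. On day 7 miR-451 was lower than at baseline (-2.09 ± 0.36, limma adjusted p = 1.37e-05), with miR-486 at -1.20, and on day 21 it was at -0.75, with miR-486 at 0.20.
Of the 6 listed red cell miRNAs 5 were measured. None of the 5 rose under both scalings on any day, while 0, 1, 3, 4 and 1 fell on days 1, 3, 4, 7 and 21. Of all miRNAs tested, 38.9%, 41.0%, 41.3%, 35.7% and 19.2% fell on those days. The list medians were 1.16, 0.46, -0.41, -1.0 and -0.62 relative to the median miRNA. On day 1 all 5 passed as higher on that scale (0.91 to 1.58), while the list median was -0.75 relative to U6. The part of red cells in the miR-486 values was not tested.

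**Figure D5:**
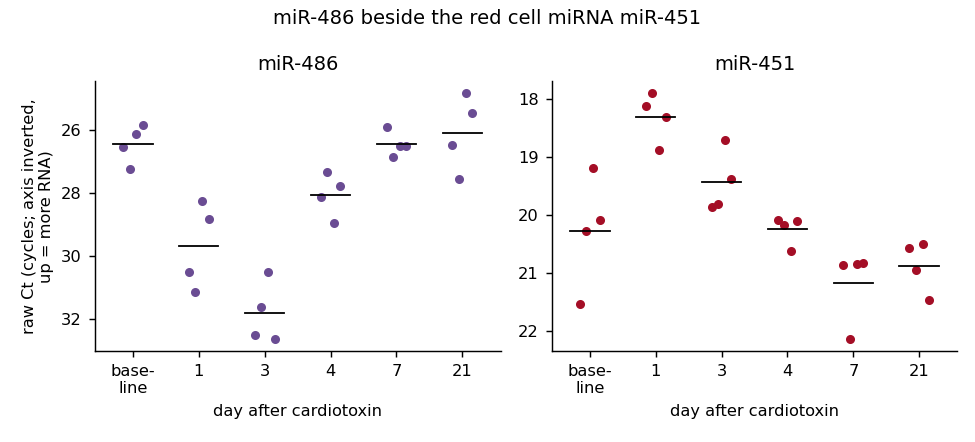
Raw Ct (cycles, axis inverted so that up is more RNA) of miR-486 on the left and of miR-451 on the right at baseline and on days 1, 3, 4, 7 and 21, with 4 values per group as points and the mean as a bar. On day 1 miR-486 averages 29.70 cycles, against 26.45 at baseline, while miR-451 averages 18.30, against 20.27.

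Markers of other cells moved on the same days. Of 7 myeloid and lymphoid miRNAs, 3, 3, 3, 2 and 0 rose on days 1, 3, 4, 7 and 21 and 0, 2, 2, 2 and 0 fell. Of all miRNAs tested, 9.00%, 19.3%, 25.4%, 31.5% and 22.1% rose on those days, and 38.9%, 41.0%, 41.3%, 35.7% and 19.2% fell. miR-223, a miRNA of the granulocyte lineage, was higher by 6.53 ± 0.12 on day 1 and stood at -0.001 on day 21. miR-142-3p, found across blood cells, was higher by 4.96 on day 1 and 0.92 on day 21, where it did not pass relative to U6. miR-142-5p of the same hairpin was higher by 5.12 on day 1, whereas miR-150, a lymphocyte miRNA, fell on days 3, 4 and 7 and was at -1.84 ± 0.21 on day 4. Both endothelial assays, of the miR-126 pair, fell on days 3, 4 and 7 and neither passed under both scalings on days 1 and 21. miR-126-3p was at -2.65 ± 0.13 on day 4. Among the 5 miRNAs of smooth muscle and fibroblasts, 2, 2, 2, 2 and 1 fell on days 1, 3, 4, 7 and 21 and 0, 1, 1, 2 and 0 rose, with miR-145, a smooth muscle miRNA, at -3.30 ± 0.16 on day 4 and -1.41 ± 0.16 on day 21. miR-143 of the same cluster was at -2.42 ± 0.17 on day 4. miR-21, which is raised in many injured tissues, went the other way, at 2.83 ± 0.18 on day 3 and 2.21 ± 0.18 on day 4. miR-199a-3p was at 0.32 ± 0.16 on day 4 and at -0.36 relative to U6, and passed under neither scaling. The part of these cells in the members' values was not tested.

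Among 17 listed miRNAs of myoblasts and differentiation, 13 were measured. Of those tested, 5 of 12 fell and 0 rose on day 1, and 5, 5, 5 and 2 of 13 fell and 2, 3, 4 and 3 rose on days 3, 4, 7 and 21. Over all miRNAs tested, 38.9%, 41.0%, 41.3%, 35.7% and 19.2% fell on days 1, 3, 4, 7 and 21. The shares that rose were 9.00%, 19.3%, 25.4%, 31.5% and 22.1%. miR-26a, which favours muscle differentiation, was at -1.77, -2.78, -2.80, -2.29 and -0.89 on days 1, 3, 4, 7 and 21, of which the day 21 value missed the threshold relative to U6. miR-27b, which targets the progenitor factor Pax3, was at -1.07 on day 1 and 0.11 on day 21. miR-181a was at -0.12, -0.40, -0.999, -0.64 and 0.63 on days 1, 3, 4, 7 and 21, and passed under both scalings on day 4 alone. Other miRNAs of this list went the opposite way. All tested miRNAs of the list ranged between -1.96 and 2.54 on day 1, -5.42 and 6.23 on day 3, -3.24 and 6.50 on day 4, -3.72 and 6.30 on day 7 and -1.76 and 6.50 on day 21. The list medians, -0.15, -0.05, 0.04, -0.56 and 0.11, were nearer to 0 than the members' medians on each day. Other muscle-enriched miRNAs of the lists, miR-206 and the miR-208 group, were not analysed here.

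The likeness of other miRNAs to the members was taken as Pearson's r over the 24 values of all 6 groups, relative to the median miRNA, among 207 candidates with a Ct in every well. These values share samples and the scaling, so r describes these samples alone. The 4 day 3 values of miR-499, past the detection limit, enter at their measured Ct. miR-489, known for keeping satellite cells quiescent, was most like the members' mean (r = 0.93), with -1.46, -5.42, -3.12, -1.45 and 0.02 on days 1, 3, 4, 7 and 21. miR-328 (r = 0.90), miR-128a (0.88), miR-193b (0.88) and miR-491 (0.88) followed. This order rested on day 3: over the 20 values without it, an alternative chosen after seeing the data, miR-190 was first (r = 0.95), miR-328 second (0.94) and miR-489 ranked 17 (0.82).
By single member, miR-328 was most like miR-1 (r = 0.95), miR-193b most like miR-133a (0.97), miR-489 most like miR-499 (0.90), and miR-128a most like both miR-133b (0.91) and miR-486 (0.89). Without day 3, miR-133a kept miR-193b (0.98), while miR-190 came first for miR-1 (0.96), miR-365 for miR-133b (0.91), miR-193b for miR-499 (0.82) and miR-99a for miR-486 (0.89). miR-193b stayed at -4.17 on day 4 after -4.30 on day 3. miR-128a, in contrast, stood at -1.06 on day 4 after -3.72 on day 3, an early return as in miR-133b and miR-486. It was picked by its r with both over the same values, so this likeness follows from the choice. Without day 3 it ranked 5 for each of them.

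Among themselves the members had r between 0.79 (miR-1 and miR-499) and 0.95 (miR-1 and miR-133a) over the 24 values. After each group's mean was taken off, so that only the spread inside groups remained, r was 0.78 for miR-1 and miR-133a, 0.78 for miR-133a and miR-133b and 0.71 for miR-1 and miR-133b. It was 0.61 for miR-1 and miR-499, between 0.32 and 0.45 for 5 further pairs, and 0.08 for miR-499 and miR-486. Differences between these correlations were not tested. Without day 3, the pair of miR-1 and miR-133a had r of 0.93 over 20 values and 0.77 inside groups, and that of miR-499 and miR-486 0.53 and 0.07.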

How the data were processed

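The authors deposited raw threshold cycles (Ct, unit other than counts; not normalized), per the file headers, as 1 column for a time point and 1 for baseline. Per the labels' protocols, total RNA with an integrity number above 9 was assayed by TaqMan RT-PCR over 40 cycles. The Ct threshold setting and RNA input were not given in the sources used here. The 5 files hold 222 assays (217 miRNAs, 5 control RNAs) with 4 values per assay and group, and baseline values that are identical in all files were used once. The members, lists and tests were chosen with earlier results of these data known.

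A miRNA was tested where its Ct was under 35 in at least 3 of 4 values of both groups; values at 40 were left out. Where a member was past 35 in 1 group only, Ct 35 gave a bound. All 6 groups entered 1 fit per scaling in R 4.3.3 with limma 3.58.1 (lmFit, eBayes), two-sided, with Benjamini-Hochberg adjustment over all miRNAs tested in a contrast. Errors are the fit's standard errors. Named miRNAs were all members, the control RNAs, the 5 miRNAs most like the members' mean, the single most like each member, and up to 4 of each list in the written order. The script was tested on simulated data. Alternatives were other control RNAs, the median Ct, the median without the members, raw Ct, other Ct limits, values at 40 kept, limma-trend, fits of 2 groups alone and leaving out each value. Leaving out each value relative to U6, and day 3 from the correlations, was added after seeing the data. Ct has no sequencing depth; 4 values per group limit the precision. The labels call the files' baseline uninjected muscle, and it has no sample record of its own here.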

Additional observations from a re-analysis of the deposited data

Results flagged for a closer look

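In 4 of 90 groups of 4 values, over the members, groups and 3 scalings, a single value stood apart from the other 3 by Dixon's criterion, which chance alone meets in about 1 of 20 groups. They were miR-133a on day 7 at -3.59 and miR-133b on day 4 at -1.90 relative to the median miRNA, miR-499 on day 21 at -0.58 relative to U6, and miR-133b on day 3 at -3.45 on raw Ct, each as log2 against the baseline mean.

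Time points differed by a test of the difference itself, relative to the median miRNA and also relative to U6. Between days 3 and 1 the differences were -2.81 for miR-133a, -2.02 for miR-133b and -2.45 for miR-486. Between days 4 and 3 they were 1.35 for miR-133a, 3.23 for miR-133b, 1.43 for miR-1 and 3.52 for miR-486. Between days 7 and 4 they were 1.41 for miR-133a, 1.48 for miR-1 and 2.18 for miR-499. Between days 21 and 7 they were 1.84 for miR-133a, 1.85 for miR-1 and 1.40 for miR-486.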

How the results depend on the processing

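No paired analysis was made, since the labels give 4 mice per time point and name neither a pairing between groups nor replicate numbers. Of the alternatives run, 1116 changes of single members kept their direction and side of the threshold, 44 lost their call, 23 gained one and 17 turned in sign, while 269 counts stayed within 1.5 times and 21 did not. With Y1 as normaliser 1, 2 and 0 members were lower than baseline on days 1, 7 and 21, and miR-499 turned to 0.22 on day 1. On the same scale 2 members were higher on day 4 than day 3 and 5 on day 7 than day 4. Y1 itself averaged 20.92, 19.66 and 20.22 cycles on days 3, 4 and 7, and no share of all miRNAs is given for these steps. On raw Ct 2 members were lower on day 7, and between days 21 and 7, 0 were higher and 2 lower. Members that differed from miR-133a on day 3 numbered 2 with a Ct limit of 38 or none, since miR-499 was then tested, and 0 on days 3 and 21 with only 2 groups in the fit. Leaving out single values gave 0 to 1 on days 3 and 21, and 2 to 4 members higher on day 4 than day 3. The share of all miRNAs that passed is not given for these alternatives. Changes that missed the threshold also turned in sign. miR-486 on day 21 turned to -0.94 with snoRNA135, -0.04 with U87, -0.21 with the median Ct and -0.22 and -0.01 without values 3 and 4 of day 21 (up to 0.68 without others). miR-133b between days 21 and 7 turned to -0.42 with snoRNA202, -0.13 with U87 and -0.80 on raw Ct, and miR-499 to 0.02 without value 1 of day 21 (down to -0.72 without others). Relative to miR-133a, miR-133b on day 21 turned to -0.04, -0.08 and -0.12 without values 2 and 3 of baseline and value 3 of day 21 (up to 0.18 without others), and miR-486 on day 3 to 0.20 without value 2 of day 3 (down to -0.72). With miR-133b in place of miR-133a, miR-486 and miR-499 on day 4 were at -0.86 and -2.24, and miR-499 on day 7 at -0.29. The causes were not tested.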
